A study of Saccharomyces cerevisiae with 8 samples.

Results

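Of the 8 two-colour Agilent arrays of the series, 4 set a yeast strain lacking a pair of drug and lipid transporters against a strain that also lacks the regulator Pdr1, and these 4 were taken by their titles. Both strains derive from the Saccharomyces cerevisiae strain SEY6210, of mating type alpha (MATα), which carries the alleles lys2-801, ura3-52 and leu2-3,-112, the deletions suc2-∆9, his3-∆200 and trp1-∆901, and GAL. The double mutant carries pdr5-∆1::hisG and yor1-1::hisG, and the triple mutant carries the same disruptions together with pdr1::kanMX4. Cells were grown in the rich medium YPD at 30 °C to an optical density of about 0.6, and 2 µg of total RNA per sample was labelled with Cy3 or Cy5. The RNA labelled double mutant was in Cy5 on arrays 1 and 3 and in Cy3 on arrays 2 and 4. The other 4 arrays set the double mutant against the SEY6210 wild type and enter no main estimate. They serve for levels, ratios and calls given beside the results, and for the alternative fits of all 8 arrays. Whether the 4 arrays against the triple mutant came from separate cultures is not stated, so p-values measure only the spread between these arrays. In the reported model that spread is taken between arrays of the same dye orientation, whereas each SD given is over all the arrays measured.

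Pdr1 is a zinc-cluster transcription factor that binds promoter elements of the pleiotropic drug resistance (PDR) genes and activates them, together with its relative Pdr3. Its targets encode ABC transporters and other exporters of the plasma membrane, enzymes of lipid metabolism and several reductases. Pdr5 and Yor1 are ABC transporters and are themselves encoded by targets of Pdr1. The comparison asks which transcripts differ when Pdr1 is removed from cells that already lack both transporters.

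PDR1 went against the strain labels on all 4 arrays. In the channel labelled double mutant, where PDR1 should be intact, its background-subtracted signal was 7.70, 9.42, 1.79 and 10.2 intensity units on arrays 1 to 4. In the channel labelled triple mutant, where PDR1 should be disrupted, it was 177, 293, 197 and 453. The groups did not overlap, and every value of the channel labelled double mutant lay near the bottom of its array. Over both PDR1 probes, 0 of 8 values were well above background in the channel labelled double mutant, at percentiles of 0.0573 to 8.18 of all probes of the channel. In the channel labelled triple mutant 8 of 8 values were well above background, at percentiles of 32.6 to 47.6. On the other 4 arrays PDR1 ranked between 36.1 and 47.3 in the double mutant, close to wild type with 36.3 to 47.2.

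The log2 ratio of PDR1, labelled double over labelled triple, was -2.70, -1.39, -2.71 and -2.27 on arrays 1 to 4, with array 2 nearest to 0. The fitted ratio was -2.27 (adjusted p = 3.23e-06, limma), and PDR1 passed the filter on dim probes only through the channel labelled triple mutant. As a bound, the level labelled triple mutant exceeded that labelled double mutant at least 4.18-fold, which the p-value does not test. For this bound the dim channel was set, on each array, to the lowest signal that counts as well above background, or to PDR1's own signal where that was higher. The files do not say where the PDR1 probes lie relative to the disruption.

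YOR1, disrupted in both strains, was measured well above background everywhere and also differed between the channels. Its background-subtracted signal was 1215, 179, 896 and 458 in the channel labelled double mutant on arrays 1 to 4, against 1491, 2192, 1497 and 3354 in the channel labelled triple mutant. The dyes differ in brightness, so ranks compare more directly: over both probes YOR1 ranked at percentiles of 59.7 to 70.2 in the labelled double mutant and of 85 to 89.5 in the labelled triple mutant. These ranges do not overlap. On the arrays with wild type, the double mutant's YOR1 ranked at 87.5 to 90.4, and that of wild type at 57.6 to 70.5. The YOR1 log2 ratio was -1.86, -1.38, -1.72 and -1.54, a 3.08-fold lower level in the channel labelled double mutant (-1.62 ± 0.21, SD, n = 4; adjusted p = 1.44e-07).

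PDR5, also disrupted in both strains, had overlapping levels. It ranked at percentiles of 81.7 to 88 in the labelled double mutant, against 83.6 to 87.6 in the labelled triple mutant, with log2 ratios of -0.31, 0.07, -0.11 and -0.21 (adjusted p = 0.10). On the other arrays it ranked at 84 to 86.1 in the double mutant and at 91.9 to 93.7 in wild type, which has the intact gene.

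**Figure D1:**
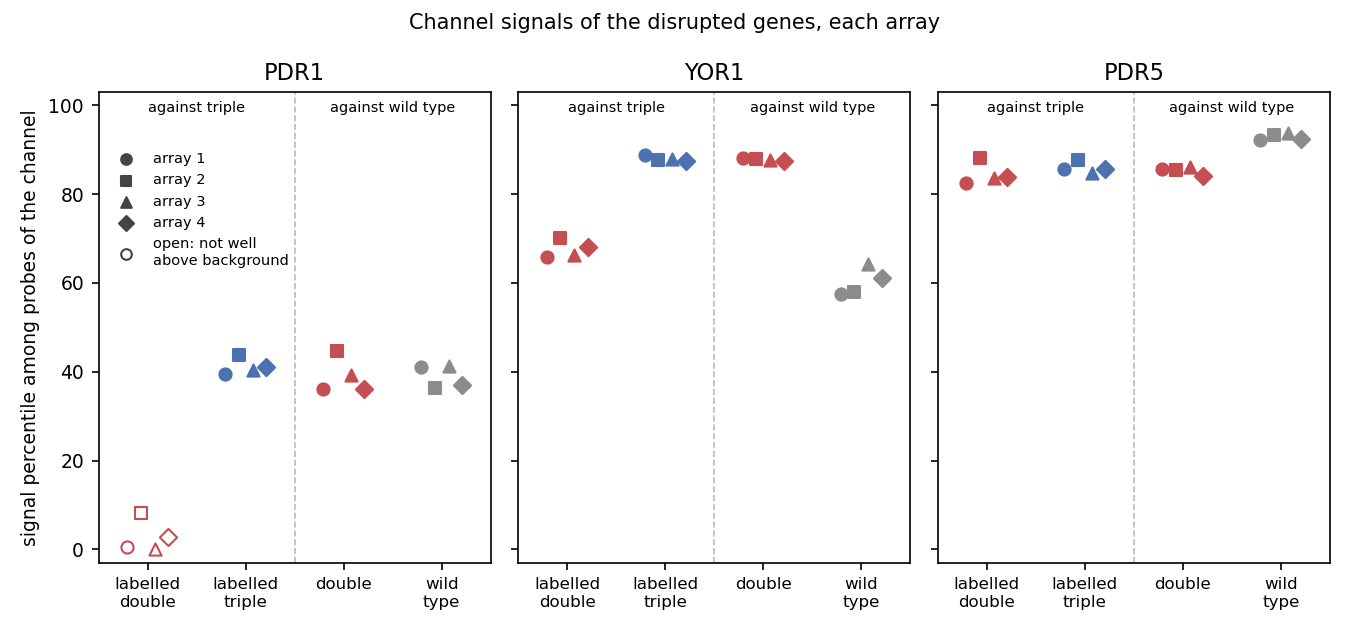
Signal percentile (vertical axis, 0 to 100, among the probes of the channel) of PDR1, YOR1 and PDR5 by channel, 1 marker per array, for the brighter probe of each gene. Markers left of the dashed line are the arrays against the triple mutant and those right of it the arrays against wild type. PDR1 reaches no more than a percentile of 8.18, with open markers (not well above background), where the RNA is labelled double mutant on the arrays against the triple mutant, and YOR1 ranks lower there than in the RNA labelled triple mutant on each array.

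Because of PDR1, samples are named below by the label of their channel, as labelled double and labelled triple. Each ratio is labelled double over labelled triple. Were the labels of these arrays exchanged, every sign below would turn.

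Most listed PDR genes were, like PDR1, lower in the labelled double channel, and ICT1, RSB1 and GRE2 among them differed by more than 3-fold. Over all genes, 6331 were tested and 1343 (21.2%) passed an adjusted p of 0.05. In the labelled double channel 481 of them (7.6%) were lower and 862 (13.6%) higher, and 2261 genes had an unadjusted p below 0.05. Nearly all these differences were small: 15 genes (0.237%) were lower by 2-fold or more and 0 were higher by that much, and at 1.5-fold the counts were 22 lower and 21 higher.

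The number of calls changed with the treatment of the dyes and with other settings, and the cause was not tested. Oriented log ratios of arrays with the same dye orientation correlated across genes with r = 0.786 (arrays 1 and 3) and 0.792 (arrays 2 and 4), against -0.0712 to 0.345 for arrays of opposite orientation. A dye effect was itself called for 1332 genes (21.0%). With that effect in the model, only arrays of like dye inform the spread. Of the calls, 955 (15.1%) had the same sign on all 4 arrays, 376 of them lower (5.94% of all genes) and 579 higher (9.15%). Without the dye term 201 genes were called, with all 8 arrays in the fit 110, and with arrays of like dye averaged first 57. All of the genes in these 3 smaller sets are among the 1343. Leaving out array 2, 3 or 4 gave 501, 872 or 335 calls. From the scanner software's processed signals 26 were called, and other settings gave up to 1896, while the number lower by 2-fold or more stayed between 14 and 18.

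**Figure D2:**
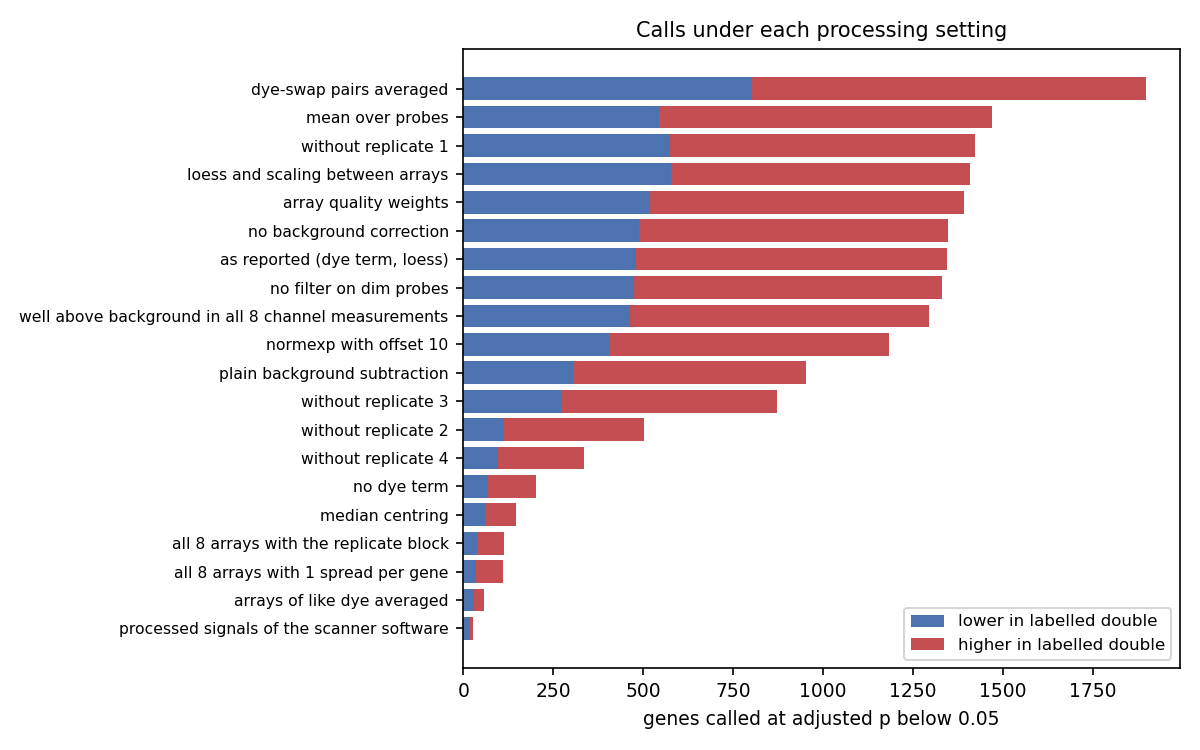
Number of genes called at an adjusted p below 0.05 (horizontal axis) under each processing setting, split into genes lower (left part of a bar) and higher (right part) in the labelled double channel. The count runs from 26 with the scanner's processed signals to 1896 with dye-swap pairs averaged, and the reported setting gives 1343.

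Array 2 was the dimmest, with median signals of 363 in Cy5 and 92.5 in Cy3, against 536 to 735 and 245 to 265 on the other 3 arrays. In each channel 85.7% to 98.2% of the probes were well above background, and 0 spots were saturated. The mating type on the label was checked with 9 genes over both channels: MF(ALPHA)1, MF(ALPHA)2 and STE3, which alpha cells express, lay at percentiles of 87.9 to 97.1, and the a-cell genes lay at 1.07 to 41.2.

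The PDR lists and the other gene lists below were chosen with earlier results of these data known. Their shares of called genes are therefore descriptions, not tests. Of 24 listed PDR genes beside the disrupted 3, 23 were measured and HXT9 was not, being well above background in 1 of 8 channel measurements. The labelled double channel had 16 of the 23 lower (69.6%, against 7.6% of all genes) and 3 higher (13%, against 13.6%), and 4 did not pass. Their median log2 ratio was -0.57, against -0.00 over all genes. By array the median was -0.80, -0.37, -0.61 and -0.52, closest to 0 on the dim array 2. Apart from HXT11, at 5 of 8 channel measurements, each measured member stood well above background in every channel, so none entered through 1 channel alone.

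Among the regulators, RPN4, the transcription factor of proteasome genes, had log2 ratios of -0.95, -0.74, -1.02 and -0.93. It was 1.88-fold lower in the labelled double channel (-0.91 ± 0.12, SD, n = 4; adjusted p = 3.23e-06), and its percentile ranges of 54.5 to 67.7 and 75.1 to 81.6 in the labelled triple channel did not overlap. Its second probe gave -0.73. PDR3, the relative of PDR1 that binds the same promoter elements, had small positive ratios on each array (0.09, 0.38, 0.18 and 0.26; adjusted p = 0.00499). YRR1, another zinc-cluster factor of drug resistance, likewise had 0.19, 0.09, 0.29 and 0.18 (adjusted p = 0.0112). Both calls were lost without array 2 and without the dye term, and they were kept in 12 and 10 of 19 settings.

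SNQ2, an ABC transporter that exports mutagens and other drugs, had log2 ratios of -1.72, -0.91, -1.45 and -1.05. All 4 were far below 0, with the arrays that carried the labelled double RNA in Cy5 lower than the others. SNQ2 was 2.44-fold lower in the labelled double channel (-1.28 ± 0.37, SD, n = 4; adjusted p = 8.42e-07), at percentiles of 87 to 91.1 against 93.5 to 94.5. PDR15, a close relative of PDR5, went the other way on each array, with 0.51, 0.58, 0.65 and 0.51. It was 1.47-fold higher (0.56 ± 0.07, SD, n = 4; adjusted p = 4.28e-05), at percentiles of 47.4 to 57.3 in the labelled double and 31.2 to 41.1 in the labelled triple channel. PDR10, of the same family, differed little (-0.22 ± 0.06, SD, n = 4; adjusted p = 0.00569), and leaving out array 2 or array 4 ended its call.

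TPO1, a polyamine exporter of the major facilitator superfamily, was 1.75-fold lower in the labelled double channel, with ratios of -0.95, -0.80, -0.65 and -0.83 (adjusted p = 1.97e-05). The fluconazole exporter gene FLR1 and the hexose transporter homologue HXT11 had -0.06 and -0.04, with signs that differed between arrays (adjusted p = 0.425 and 0.501).

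All 5 listed lipid genes were lower, and ICT1 and RSB1 had the lowest ratios of all measured genes after PDR1. ICT1, a lysophosphatidic acid acyltransferase, had -1.69, -1.84, -1.70 and -2.32. It was 3.70-fold lower in the labelled double channel (-1.89 ± 0.30, SD, n = 4; adjusted p = 3.89e-07), at percentiles of 49.5 to 69.7 against 86.7 to 90.3. RSB1, which moves sphingoid long-chain bases out of the cell, had -2.09, -1.34, -1.91 and -1.995. This made it 3.56-fold lower (-1.83 ± 0.34, SD, n = 4; adjusted p = 3.23e-06), at percentiles of 26.7 to 29.2 against 64.7 to 74.9. PDR16, a phosphatidylinositol transfer protein, varied least of these 5 among the arrays (-1.06, -1.08, -1.17 and -1.12; adjusted p = 3.68e-07). LAC1, a ceramide synthase subunit, was at -0.85 and -0.80 on arrays 1 and 3 and at -0.21 and -0.39 on arrays 2 and 4, a call lost without the dye term (fitted value -0.56; adjusted p = 5.53e-05). IPT1, which makes the most complex inositol sphingolipid, was lower by a smaller margin (-0.38 ± 0.18, SD, n = 4; adjusted p = 0.00358), with the call kept in 13 of 19 settings and gone without array 4.

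Enzymes and genes of other or unknown function gave the longest list of large differences. GRE2, a methylglyoxal reductase, had -1.84, -1.24, -1.52 and -1.92. It was 3.1-fold lower in the labelled double channel (-1.63 ± 0.31, SD, n = 4; adjusted p = 1.15e-05). It is a dim gene there, at percentiles of 12.5 to 17.5 against 40.6 to 57, and its ratio was -2.39 from the scanner's processed signals. YGR035C, of unknown function, had -1.30, -1.19, -1.51 and -1.78, with -1.20 from its second probe against a fitted value of -1.45 (adjusted p = 9.38e-06). YPL088W, a putative aryl-alcohol dehydrogenase, had -1.38, -1.14, -1.51 and -1.12 (adjusted p = 2.40e-07).

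CIS1 had -1.40, -1.05 and -1.25 on arrays 1 to 3, its spot on array 4 being marked as an outlier and left out (adjusted p = 6.25e-06). LAF1, and RTA1, which encodes a membrane protein related to Rsb1, were lower by 1.53-fold and 1.48-fold on the fitted scale, with every array below 0 (adjusted p = 0.000549 and 0.000162). RTA1 is dim, at percentiles of 5.62 to 16.8 against 13.3 to 22.5, and its ratio was -1.92 from the processed signals. BDH2, a putative alcohol dehydrogenase, ran from -0.57 on array 3 to 0.06 on array 4, so its call (-0.19; adjusted p = 0.0480) does not hold on every array and was kept in 5 of 19 settings. YLR179C and YLL056C did not pass (-0.04 and 0.07; adjusted p = 0.444 and 0.279).

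Of these 19 calls, 8 were kept in each of the 19 settings: SNQ2, TPO1, ICT1, RSB1, PDR16, GRE2, YGR035C and YPL088W, all of them lower. The number lower ran from 9 with the processed signals to 16.

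**Figure D3:**
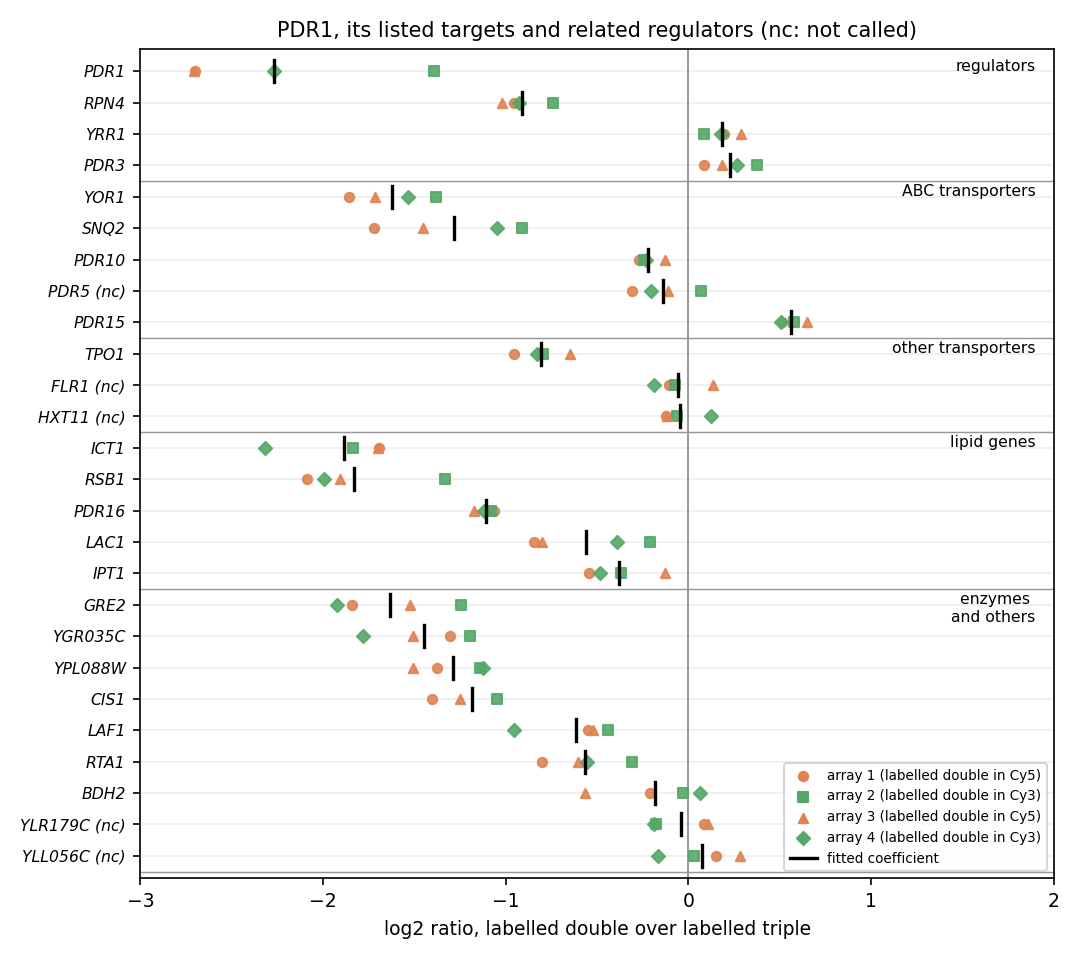
Log2 ratio of labelled double over labelled triple (horizontal axis) of PDR1 and the listed PDR genes, grouped by role, with 1 marker per array, coloured by the dye of the labelled double RNA, and a bar at the fitted coefficient. Genes marked nc did not pass. ICT1, RSB1, GRE2, YGR035C, YPL088W, SNQ2 and PDR16 lie below -0.9 on every array, and PDR15 lies above 0.5 on every array.

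The double mutant is on both sets of arrays, so the values of the 2 comparisons are not independent and are only given side by side, from fits to 4 arrays each. RSB1 had -1.83 here and 3.09 as double over wild type (adjusted p = 0.000437). ICT1 had -1.89 and 2.27, GRE2 -1.63 and 2.17, YOR1 -1.62 and 1.95, and YGR035C -1.45 and 1.95. PDR15 had 0.56 and 0.50, PDR3 0.23 and 0.56, and PDR5 -0.14 and -1.46. In the fit against wild type 21 genes (0.332%) were called higher and 7 (0.111%) lower in the double mutant, among them RSB1, ICT1, GRE2, YOR1 and YGR035C as higher and PDR5 as lower, whereas PDR15 and PDR3 were not called (adjusted p = 0.0773 and 0.120).

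Among the 15 lowest called genes outside the disrupted loci with 1 sign on all 4 arrays, 8 were listed PDR genes and 7 were others. CIS1, at -1.19, is not among them only because it was measured on 3 arrays. YAR066W, YAR068W, YHR214W-A and YHR214W are related subtelomeric genes of chromosomes I and VIII, and probes may not tell all of them apart. As double over wild type on array 4, YAR066W and YHR214W had 2.15 and 2.15, but YAR068W and YHR214W-A had 1.15 and 1.06. These 4 genes were lower by 3.13-fold to 3.28-fold in the labelled double channel, and all 16 of their array ratios lay between -1.89 and -1.44 (adjusted p = 1.11e-07 to 3.68e-07). TVS1 had -1.26, -1.37, -1.13 and -1.48 (adjusted p = 2.40e-07). YGP1, a secreted glycoprotein of the cell wall, had -1.06, -1.11, -0.98 and -0.83, and FRE4, a ferric reductase, had -0.74, -0.95, -0.98 and -0.83. As double over wild type the 4 subtelomeric genes had 2.39, 2.02, 1.95 and 2.30, TVS1 1.55, YGP1 1.00 (adjusted p = 0.0756) and FRE4 1.11.

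None of the 15 highest genes reached 2-fold on the fitted scale. TPO2, a polyamine exporter, had 0.88, 0.72, 1.14 and 1.14, and was 1.96-fold higher in the labelled double channel (0.97 ± 0.21, SD, n = 4; adjusted p = 3.98e-05). PRY1, a secreted sterol-binding protein, had 1.14, 0.62, 1.13 and 0.84 (adjusted p = 3.23e-06). MDH2, the cytosolic malate dehydrogenase, had 0.80, 1.11, 0.85 and 0.90 (adjusted p = 3.23e-06). All 3 were above 0.6 on every array. PRY1 was called in every setting, and TPO2 and MDH2 in each but the processed signals. As double over wild type TPO2 had -0.86 (adjusted p = 0.0394), PRY1 -0.73 (adjusted p = 0.135) and MDH2 -0.18 (adjusted p = 0.699). Array 4 of that comparison stood apart for each: MDH2 had 0.56 there, against -0.56 to -0.32 on the others. PRY1 had -1.49, against -0.59 to -0.41, and TPO2 had -0.43, against -1.185 to -0.81.

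Other genes in this group were transporters: AQR1, an exporter of amino acids and drugs (0.80), HXT4, a hexose transporter (0.71), and the aquaporin gene AQY2 with the adjacent YLL053C (0.71 and 0.76). AQY2 ran from 0.24 on array 2 to 1.15 on array 3. Metabolic genes were URA1, the dihydroorotate dehydrogenase of pyrimidine synthesis (0.69), and LEU4, which begins leucine synthesis (0.67). ADR1, the activator of genes for ethanol and fatty acid use, had 0.68, TIP1, a cell wall mannoprotein, 0.76, and IZH3, a membrane protein linked to zinc, 0.67. YNL018C (0.81), ICS2 (0.70) and YKR075C (0.68) have no role given here. Of the 30 highest and lowest genes, 15 were called in every setting, among the highest AQR1, YNL018C, ICS2 and PRY1.

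**Figure D4:**
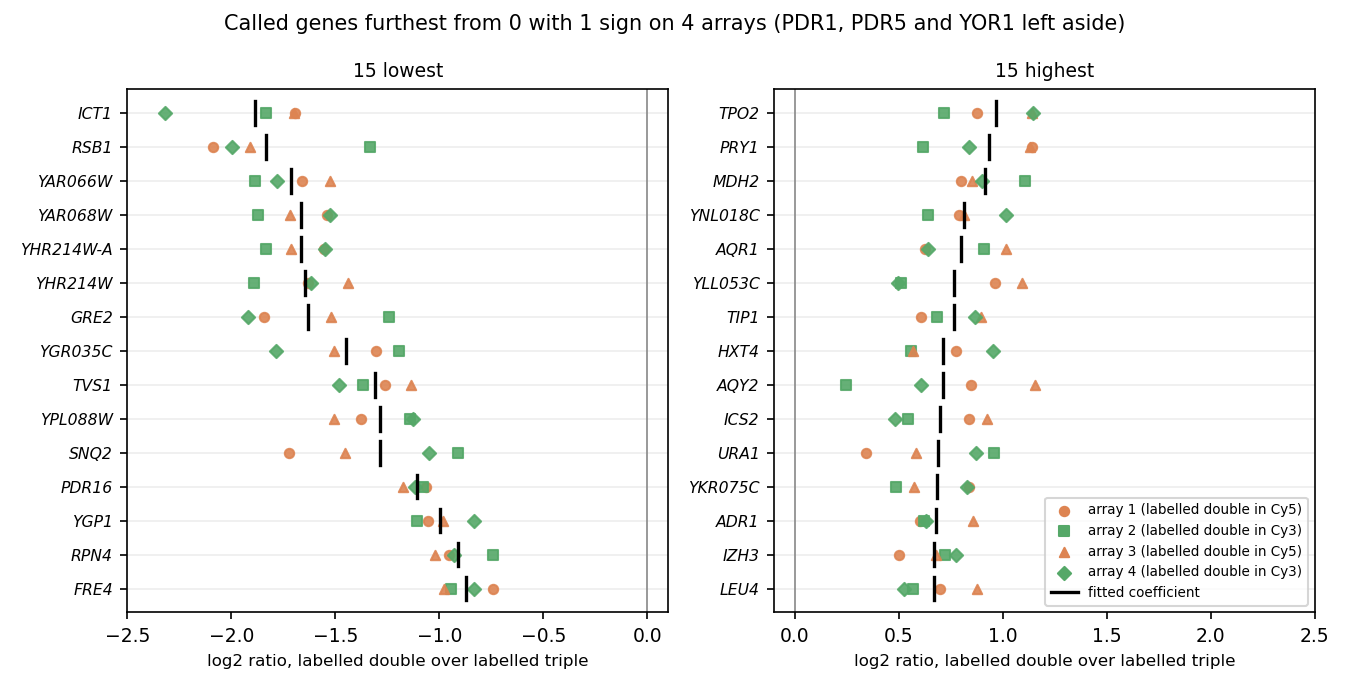
Log2 ratio of labelled double over labelled triple (horizontal axes) on each array for the 15 lowest and 15 highest called genes with 1 sign on all 4 arrays, PDR1, PDR5 and YOR1 left aside. Bars mark fitted coefficients, and markers are coloured by the dye of the labelled double RNA. The lowest genes reach -1.89 (ICT1) and the highest 0.97 (TPO2).

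Genes of mitochondrial respiration were slightly higher in the labelled double channel as a group. Of 35 measured genes of the respiratory chain and ATP synthase 32 were called higher (91.4%, against 13.6% of all genes) and 0 lower. All 35 fitted ratios were positive, from 0.08 to 0.42, and the median was 0.28, or 0.21, 0.28, 0.27 and 0.22 by array. RIP1, the Rieske iron-sulphur protein of complex III, had 0.31, 0.41, 0.64 and 0.31 (adjusted p = 0.00120), and SDH2 of succinate dehydrogenase had 0.31, 0.54, 0.35 and 0.44 (adjusted p = 0.000174). COX5A of cytochrome c oxidase had 0.48, 0.21, 0.72 and 0.12. The number called depends on the setting, from 0 with median centring, with the processed signals and with like-dye arrays averaged to 33, with 19 without array 2, while the median stayed between 0.23 and 0.31. As double over wild type the median was -0.42.

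Genes of the citric acid and glyoxylate cycles were higher in 14 of 20 cases (70%, against 13.6% of all genes) and lower in 0, with a median of 0.17. Beside MDH2, CIT2, the peroxisomal citrate synthase, had 0.24, 0.57, 0.35 and 0.55 (adjusted p = 0.000156), and the mitochondrial citrate synthase gene CIT1 had 0.25 (adjusted p = 0.00254). The glyoxylate cycle genes ICL1 and MLS1 had 0.06 and -0.00 and were not called. ALD4, the mitochondrial aldehyde dehydrogenase, from the list of glycolysis and fermentation, had 0.77, 0.44, 0.46 and 0.74 (adjusted p = 0.000312). That list had 5 of 29 genes higher (17.2%, against 13.6% of all genes) and 1, the cytosolic aldehyde dehydrogenase gene ALD6, lower (-0.21). Its higher calls were 2 without array 2 or 3 and 1 without array 4, and ALD6 lost its call without array 2. The cycle list held between 0 and 14 calls over the settings, with 5 without array 2 and 3 without array 4, and its median was 0.14 to 0.20.

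Hexose transporter genes were higher in 5 of 13 cases (38.5%, against 13.6% of all genes), and 1, the low-affinity transporter gene HXT3, was lower (-0.20; adjusted p = 0.00765) and was not called without array 4. Beside HXT4, HXT2 had 0.39, 0.62, 0.48 and 0.67 (adjusted p = 3.92e-05), and HXT7 and HXT6, 2 transporters of high affinity and nearly the same sequence, had 0.32 and 0.22. Amino acid permease genes were higher in 8 of 21 cases (38.1%) and lower in 0. SAM3, the S-adenosylmethionine permease, had 0.41, 0.54, 0.84 and 0.56 (adjusted p = 0.000334), and AGP1, a general permease, had 0.76, 0.44, 0.75 and 0.38. Gcn4-regulated genes of amino acid synthesis had 13 of 44 higher (29.5%) and 2 lower (4.55%, against 7.6% of all genes), and their median was 0.05. Among them were ILV3 (0.29), LEU1 (0.28) and ARG1 (0.26) as higher and CPA1, a subunit of carbamoyl phosphate synthetase, as lower (-0.34; adjusted p = 0.000353). The fit of all 8 arrays had 0 or 1 called gene in each of these 3 lists. Without array 2 or without array 4, 3 hexose transporter genes and 5 permease genes were higher, and without array 2, 3 or 4 there were 3, 3 or 4 higher Gcn4-regulated genes.

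Proteasome genes were slightly lower in the labelled double channel, as was RPN4. Of 32 genes 13 were called lower (40.6%, against 7.6% of all genes) and 0 higher, and 31 of 32 ratios were negative, with a median of -0.11, and of 0.13 as double over wild type. RPN11, the deubiquitinase of the lid, had -0.14, -0.26, -0.45 and -0.18 (adjusted p = 0.00957), and SCL1, an alpha subunit of the core, had -0.09, -0.22, -0.25 and -0.16. Ribosome biogenesis genes had 23 of 57 lower (40.4%) and 0 higher, with the same median of -0.11 and LOC1 and NOP7 at -0.23 and -0.20. Cytosolic ribosomal protein genes had 24 of 137 lower (17.5%) and 2 higher, with a median of -0.06. None of these 3 lists kept a call in the fit of all 8 arrays or without the dye term, and lower calls were 0, 0 and 1 without array 2, 9, 4 and 9 without array 3, and 2, 0 and 0 without array 4. Their medians stayed negative in every setting.

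The list of iron uptake and its regulators had 10 of 23 genes lower (43.5%, against 7.6% of all genes). Its 3 higher genes (13%) are close to the share of all genes (13.6%). Beside FRE4, HMX1, the heme oxygenase, had -0.43, -0.41, -0.48 and -0.73 (adjusted p = 0.000279), and TIS11, which degrades messages of iron-using proteins, had -0.41, -0.67, -0.41 and -0.55. FIT2, a mannoprotein that holds siderophores in the wall, and the siderophore transporter genes ARN1 and ARN2 were lower too (-0.45, -0.41 and -0.41). FTR1 and FET3, which together form the high-affinity iron uptake complex, were higher: FTR1 had 0.65, 0.32, 0.63 and 0.49 (adjusted p = 7.67e-05), and FET3 had 0.33. The low-affinity transporter gene FET4 had 0.18. Without array 2, 6 genes were lower. HMX1, FRE4 and FTR1 were called in 18, 18 and 17 of the 19 settings, and TIS11, FIT2 and FET3 in 15, 14 and 14. The second probe of TIS11 gave -0.29, against a fitted value of -0.51.

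In the sphingolipid list 5 of 29 genes were lower (17.2%, against 7.6% of all genes), namely RSB1, LAC1 and IPT1 with the sphinganine hydroxylase gene SUR2 (-0.37; adjusted p = 0.000465) and the ceramidase gene YPC1 (-0.30). The 5 higher ones (17.2%, against 13.6%) stayed at or below 0.23, with the fatty acid hydroxylase gene SCS7 at the top. They numbered 8 without array 1, 2 without array 2 and 0 without array 4. Ergosterol synthesis had 4 of 24 genes lower (16.7%, against 7.6% of all genes), led by the 3-keto reductase gene ERG27 (-0.38; adjusted p = 0.000194), and 2 higher (8.33%, against 13.6%), ERG11 (0.21) and ERG25 (0.20). Without array 2 or without array 4, 1 gene was lower and 0 higher. Phospholipid synthesis had 4 of 30 higher (13.3%, about the share of all genes) and 0 lower, the glycerol-3-phosphate acyltransferase gene GPT2 being the largest (0.28). Higher calls were 1, 2 and 1 without array 2, 3 and 4.

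Cytosolic and mitochondrial chaperone genes had 7 of 24 higher (29.2%, against 13.6% of all genes) and 2 lower (8.33%, against 7.6%), with 1 higher without array 4 and 4 higher without array 1, 2 or 3, and 0 lower without array 1 or 2. HSP60, the mitochondrial chaperonin, had 0.28, 0.35, 0.46 and 0.37 (adjusted p = 0.000584), while HSP12, a membrane-associated stress protein, was highest on array 1 (0.87, against 0.19 to 0.36 on the others). The list of oxidative stress had 2 of 25 genes higher (8%, against 13.6% of all genes) and 1 lower (4%, against 7.6%). Anaerobic genes had 3 of 19 higher (15.8%) and 3 lower (15.8%). No gene of these lists lay beyond 0.27 in either direction. Without array 2 the oxidative stress list had 0 calls and the anaerobic list 3, and without array 4 both had 0. Genes of the unfolded protein response, which answer to misfolded proteins in the endoplasmic reticulum, had 0 of 20 called by limma, 4 at an unadjusted p below 0.05, and 1 called in 4 of the 19 settings. Their ratios ran from -0.12 to 0.10, and their median was 0.01, against 0.35 as double over wild type.

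Of 30 zinc-cluster transcription factor genes, the family of PDR1, 5 were higher (16.7%) and 2 lower (6.67%), close to the 13.6% and 7.6% of all genes. The lower ones were PDR1 and GAL4 (-0.14), and the higher ones beside PDR3 and YRR1 were CHA4 (0.20), RGT1 (0.19) and SEF1 (0.15). The higher calls were 0, 2 and 1 without array 2, 3 and 4, and GAL4 lost its call without any 1 of the 4 arrays.

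**Figure D5:**
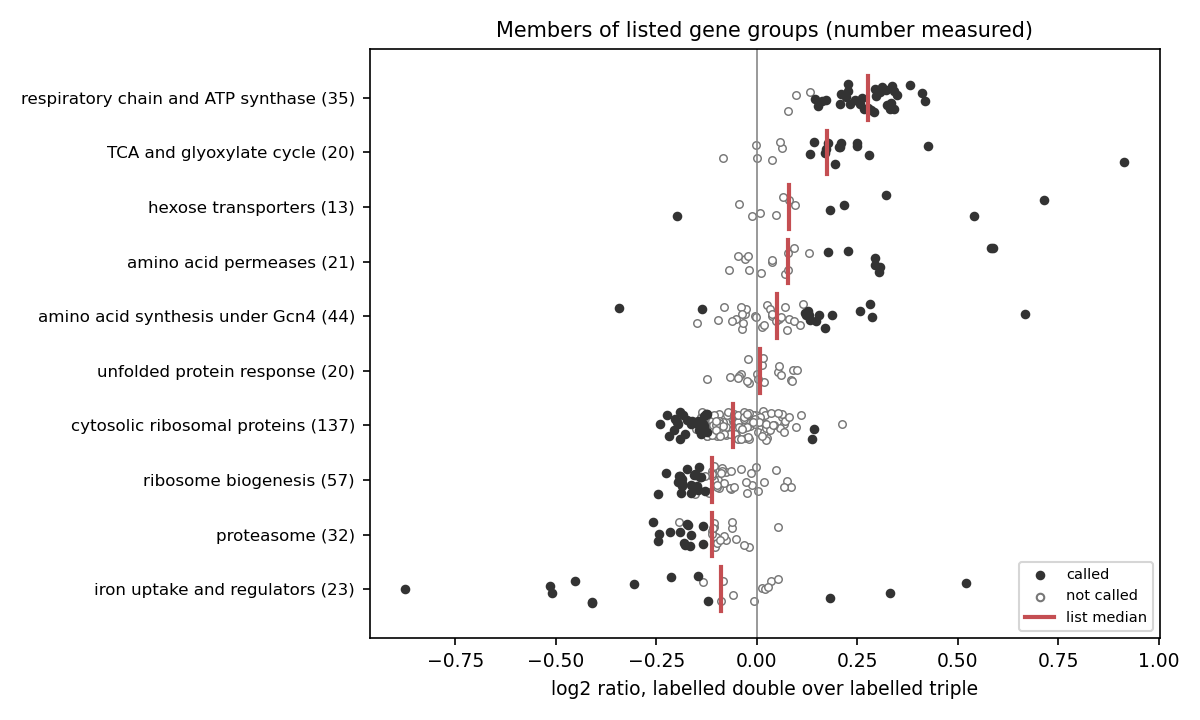
Fitted log2 ratio of labelled double over labelled triple (horizontal axis) of each measured member of 10 gene lists, with filled markers for genes that passed, open markers for those that did not, and a bar at the list's median. Markers are spread vertically only to separate them. The respiratory genes lie to the right of 0 throughout, proteasome and ribosome biogenesis genes lie mostly to the left, and the unfolded protein response is centred at 0.

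Of the 6 neighbours of the disrupted loci 1 was lower (16.7%, against 7.6% of all genes) and 1 higher (16.7%, against 13.6%). ATG40 lies next to PDR5 and encodes a receptor through which the endoplasmic reticulum enters autophagy. It had -0.65, -0.38, -0.51 and -0.58 and was 1.44-fold lower in the labelled double channel (adjusted p = 0.000133). Its ratio of double over wild type was 1.36 (adjusted p = 0.0129). SLP1, on the other side of PDR5, had -0.06 and was not called. BGL2, next to YOR1, had 0.20 (adjusted p = 0.0303), with the call kept in 8 of 19 settings. PXR1, on its other side, had -0.19 (adjusted p = 0.0571), and the neighbours of PDR1, PUF4 and ERG4, had -0.07 and 0.10 and were not called. Of the marker genes mutated in the SEY6210 background, HIS3 and SUC2 were well above background in 0 of 8 channel measurements each and TRP1 in 2. LEU2 had 0.47, 0.27, 0.55 and 0.22 (adjusted p = 0.000263), with the call kept in 14 of 19 settings, whereas LYS2 (0.11) and URA3 (-0.02) were not called.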

How the data were processed

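Total RNA of 3 yeast strains was measured on 8 arrays of 1 slide. Per the file headers, the authors extracted the scans with Agilent Feature Extraction 10.7.3.1, and the deposited files hold, per spot and channel, a mean and a background intensity. They also hold a processed intensity and flags, scored 0 or 1. The series' table of normalized values was not used, because its 8 value columns match no title or description.

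The 4 arrays of double against triple mutant were analysed with limma 3.58.1 in R 4.3.3. Mean intensities were corrected by normexp (offset 50) and loess-scaled within arrays, control spots having no weight and outlier spots left out. Of 13092 probes 12593 were kept, being well above background in at least 4 of 8 channel measurements. The brighter probe stood for each gene, 214 features were left out as dim, and 1 gene could not be fitted. Of the kept genes 5762 have a name in the R64 reference table, used for names and neighbours only. The model held a dye term and the strain difference, with 2 residual degrees of freedom, and a gene was called at a p-value below 0.05 after Benjamini-Hochberg adjustment. Where another adjusted p is given, it comes from the same kind of fit. The second probe had the same sign in 1323 of 1323 called genes whose second probe was also kept, both probes being read on the same arrays. Ratios are on the log2 scale of corrected intensities, and percentiles rank background-subtracted intensity among the probes of a channel. No counts underlie these values, and the number of arrays limits the precision.

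The members and the 26 gene lists were chosen with earlier results of these data known. Genes are named by a rule: the disrupted genes, all listed PDR genes, the 15 highest and 15 lowest called genes with 1 sign on 4 arrays, up to 4 called genes of each direction and list, disrupted loci's neighbours, and marker and mating-type genes. ICL1, MLS1, ARN1, ARN2, YPC1, FET4 and SEF1 were named after their values were seen. Simulated arrays with known changes were used to check that the fit runs as intended. Their noise and dye effects were drawn from the fitted model itself, so they cannot tell whether that model holds for these arrays. Alternatives were other background corrections, scalings, filters and probe rules, weights, no dye term, all 8 arrays with or without a block, averaged pairs, and each array left out. The averaging of like-dye arrays was added after the data were seen.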

Additional observations from a re-analysis of the deposited data

Results flagged for a closer look

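Among 125 named genes measured on all 4 arrays, 3 had an array that stood apart from the other 3 by Dixon's test, which chance does in about 1 of 20 groups. EBP2, a ribosome biogenesis gene, was at -0.00 on array 1 (-0.0004668), against -0.27 to -0.23 on the others. ADR1 was at 0.85 on array 3 (0.8545), against 0.60 to 0.63. FIT2 was at -0.14 on array 4 (-0.1395), against -0.60 to -0.54.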

How the results depend on the processing

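PDR1 and YOR1 kept their direction and call in every setting that measured them (YOR1 in 19 and PDR1 in 18, since the strictest filter drops it), but the PDR1 log2 ratio ran from -7.06 with the processed signals and -5.24 with plain background subtraction to -2.05 without array 4. Counts of calls are given as all, higher and lower. They were 110, 74 and 36 with all 8 arrays, 201, 131 and 70 without the dye term, 147, 88 and 59 with median centring, 26, 9 and 17 with the processed signals (34.6% higher, against 64.2%), and 57, 28 and 29 with like-dye arrays averaged. Lower calls were 803 with dye-swap pairs averaged and 305 with plain subtraction. Leaving out each array in turn gave 335 to 1421, 238 to 847 and 97 to 574 calls, the lowest of each without array 4, with 501 without array 2 and 872 without array 3. PDR targets called lower were 9 with the processed signals, and their median was -0.77 with plain subtraction. With the replicate block on all 8 arrays 114 genes were called, 77 higher and 37 lower. Deviations from each gene's mean over 4 arrays correlated at -0.191 to 0.205 between same-numbered arrays of the 2 comparisons. Between arrays of unlike number the range was -0.347 to 0.303. Dye orientation enters these deviations, so they cannot decide whether the numbers pair the samples. Of 113 named calls 16 were kept in every setting. Of the 113, PAU7 turned its sign (-0.0761 with the processed signals). Uncalled values near 0 turned for YLR179C (0.0175 with the processed signals), FLR1 (0.00322 there, and -0.118 to 0.00154 with each array left out), HXT11 (0.0423 with median centring, and -0.0907 to 0.00284) and URA3 (0.0121 with median centring, 0.1205 with the processed signals, and -0.0635 to 0.0194). The cause of these changes was not tested.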

Other observations

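Protein-coding neighbours of the 16 PDR genes called lower were read from the order of genes in the reference table, a choice made after the values were seen, and without alternative settings. Of 30 tested neighbours 8 were lower (26.7%, against 7.6% of all genes) and 3 higher (against 13.6% of all genes), with a median of -0.00. PAA1 among the lower genes, and ISA1 and RPL4B among the higher ones, differed in sign between arrays. MIM2, a protein of the mitochondrial outer membrane import machinery that lies next to ICT1, had -0.67, -0.41, -0.43 and -0.62 (adjusted p = 0.000213). SNC2, a vesicle SNARE gene next to PDR10, had -0.47, -0.63, -0.55 and -0.47 (adjusted p = 7.99e-05), below PDR10 itself at -0.22. CHA4, on the other side of ICT1, was higher (0.20). The files do not state whether such probes read transcripts of the neighbouring gene.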
